A study of Homo sapiens with 3 samples.

Results

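Keratins are the intermediate filament proteins of epithelial cells. A filament is built from pairs of a type I (acidic) and a type II (basic) chain, so that an epithelium is recognised by the pairs it makes. The type II chain KRT8 and the type I chain KRT18 form the filaments of simple, single-layered epithelia, and KRT7 and KRT19 are added in ducts, including those of the pancreas. Pancreatic ductal adenocarcinoma usually keeps these ductal keratins, and antibodies to KRT7 and KRT19 are used in its diagnosis.

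The keratins described here are 9 listed genes, KRT7, KRT8, KRT80 and KRT81 of type II and KRT10, KRT15, KRT17, KRT18 and KRT19 of type I. All probe sets that the platform annotation gives to one of them alone were taken, which made 13 probe sets for 7 genes, of 54613 probe sets and 19775 named genes in all. KRT17 and KRT81 had no such probe set in the annotation used and are not analysed here. RNA came from 3 stably infected derivatives of PANC-1, a human cell line from a pancreatic ductal adenocarcinoma, and each was read on 1 Affymetrix array. The lines expressed a mutant JMJD3, wild-type JMJD3 or, as the control, only the blank MSCV retroviral vector. KDM6B encodes JMJD3, which removes the repressive methyl mark that Polycomb proteins place on histone H3. The labels give neither the mutation nor whether a line grew from 1 clone, and the lines had no further treatment. With 1 array per group no difference has a replicate check, no test was possible and no p-value is given.

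Signals are on the log2 scale and compare 1 probe set between arrays, never 1 keratin with another. A signal is called measured above a floor of 5.48, the pooled median of all arrays. A difference is that of the log2 signals after flooring, and a gene is counted as higher or lower from 2-fold, or 1 on the log2 scale. The brightest probe set stands for a gene in counts.

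The array medians lay between 5.48 and 5.50, and 21.0% of probe sets had one identical value throughout. The brightest of 5 KDM6B probe sets read 7.65 with mutant JMJD3, 7.66 with wild-type JMJD3 and 7.60 in control, while 1556067_a_at read 6.45, 6.73 and 5.53 in the same arrays. Whether these probes lie in the introduced sequence is not given in the labels. Of 8 named ductal marker genes 7 were over the floor in every array, and the chloride channel gene CFTR was under it. Those 7 include the members KRT7, KRT8, KRT18 and KRT19, so the list is no separate check on them. KRT19 passed the floor only narrowly in control, at 5.55. None of 4 acinar, 5 endocrine and 3 leukocyte markers was over the floor in any array. Of 6 fibroblast markers 3 were, with a summed linear signal of 1502 with mutant JMJD3, 1929 with wild-type JMJD3 and 1351 in control. The brightest of them was the collagen gene COL1A1, at 10.38, 10.69 and 10.16 in the same arrays. Of 2 erythroid markers the globin gene HBB was over the floor, and the summed signal was 178 with mutant JMJD3, 1710 with wild-type JMJD3 and 220 in control. The HBB difference between wild-type JMJD3 and control was 3.18 at the brightest probe set, 3.33 at 209116_x_at and 2.43 at 217232_x_at, all with shared probes. It was 0.10 at 1562981_at, which is not marked as shared. The fibroblast and erythroid sums were thus highest in the wild-type array, as were all measured keratins but KRT10, and their part in the keratin values was not tested. The ductal sum, which holds keratins, was highest there too. It was 11480 with mutant JMJD3, 19160 with wild-type JMJD3 and 17010 in control.

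The keratins showed 3 patterns over the arrays. KRT19 was bright in both JMJD3 arrays and near the floor in control. KRT7 and KRT80 were highest with wild-type JMJD3 and lowest with the mutant. KRT8, and by less KRT18, stood low in the mutant array alone, and KRT10 differed little.

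**Figure D1:**
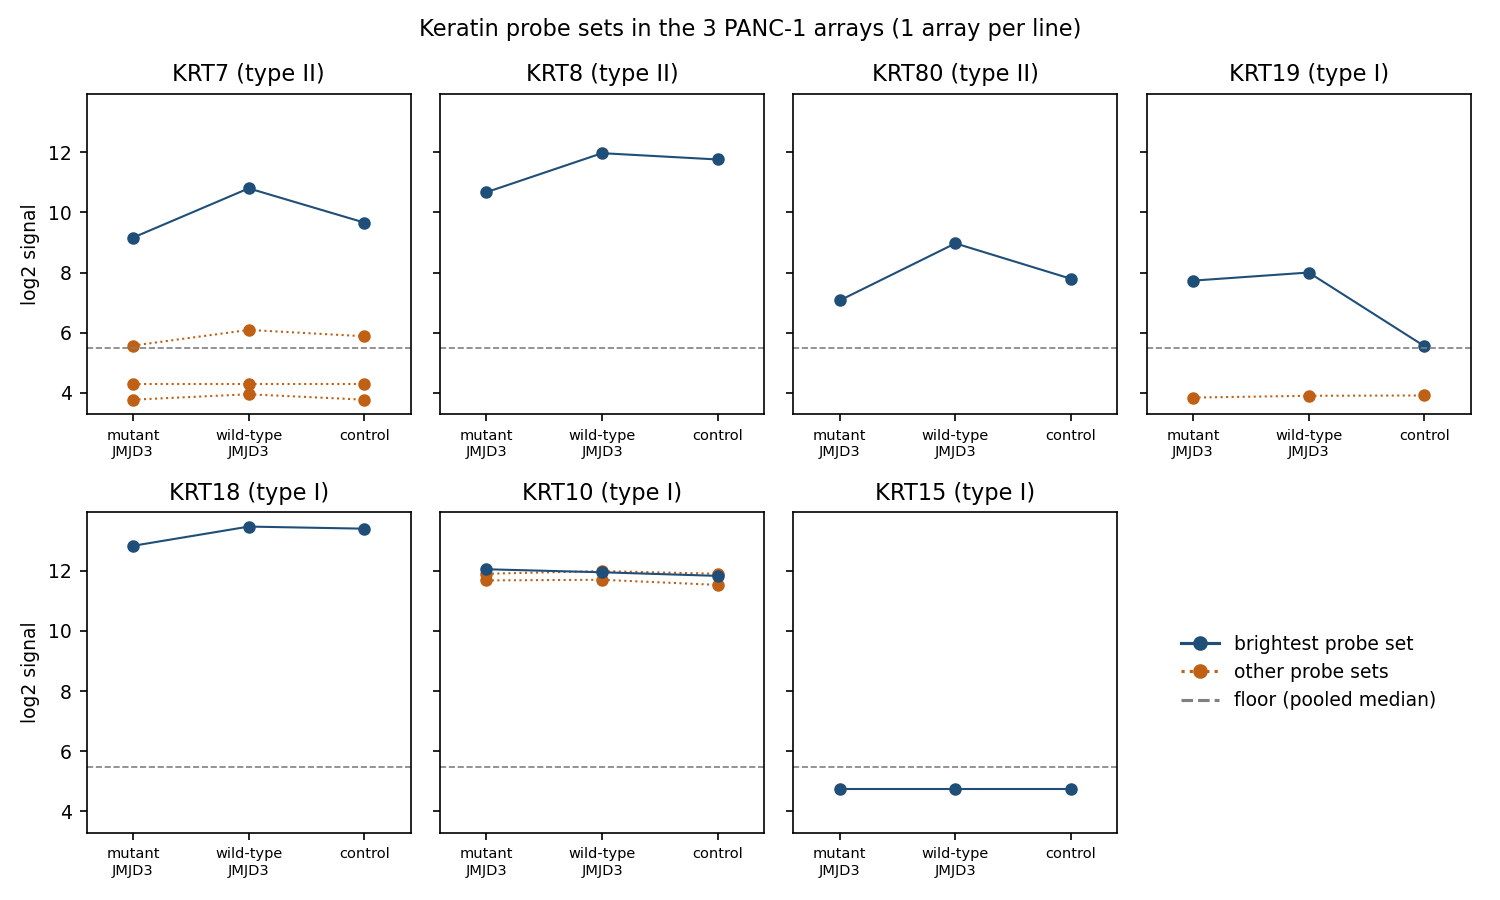
Log2 signal (y axis) of each keratin probe set in the mutant JMJD3, wild-type JMJD3 and control arrays (x axis, 1 array each); lines join the values of 1 probe set, blue marks the brightest of a gene, and the dashed line is the floor at 5.48. KRT19 reads 7.73 and 8.00 in the JMJD3 arrays and 5.55 in control, and KRT15 lies at 4.75 in all of them.

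KRT19 is the smallest keratin and lacks most of the tail domain of its relatives. Its probe set 201650_at read 7.73 with mutant JMJD3, 8.00 with wild-type JMJD3 and 5.55 in control. Both JMJD3 arrays were thus far above control, and control lay only just over the floor. Set against control, the signal was 4.53-fold higher in the mutant array and 5.46-fold higher in the wild-type array. Both differences use the same control array. Only 4 of 12697 measured genes, KRT19 included, were as much higher with wild-type JMJD3 (0.0315%), and 23 of 12707 with the mutant (0.181%). Between the JMJD3 arrays KRT19 differed by -0.27 (mutant minus wild-type).

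The other KRT19 probe set, 228491_at, read 3.84 with mutant JMJD3, 3.90 with wild-type JMJD3 and 3.91 in control. It was under the floor everywhere and did not follow 201650_at, so the KRT19 difference rests on 1 probe set. Neither identifier marks shared probes. With the median over both probe sets in place of the brightest, KRT19 differed from control by 0.30 with mutant JMJD3 and by 0.47 with wild-type JMJD3, under 2-fold. When the floor was raised to the 60th percentile (6.17), control lay under it, and the differences became lower bounds of 1.56 with mutant JMJD3 and 1.83 with wild-type JMJD3.

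KRT7, the type II keratin of ducts and glands, was read by 4 probe sets. The brightest, 209016_s_at, gave 9.16 with mutant JMJD3, 10.80 with wild-type JMJD3 and 9.66 in control. The wild-type array was the high one and the mutant array the low one. Against control, KRT7 was 1.41-fold lower in the mutant array, under 2-fold, and 2.20-fold higher in the wild-type array. Mutant against wild-type JMJD3 was 3.12-fold lower, a size that 41 of 12829 measured genes reached (0.320%).

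The remaining KRT7 probe sets were dim. Probe set 1558393_at kept the order of the arrays at a smaller size, with 5.57 for mutant JMJD3, 6.09 for wild-type JMJD3 and 5.88 for control. Probe sets 1558394_s_at and 214031_s_at were under the floor in every array, and 214031_s_at read 4.29 in all. The 209016_s_at identifier marks probes shared with other transcripts. Without such probe sets 1558393_at stood for KRT7, and its differences were 0.21 for wild-type JMJD3 against control and -0.52 for mutant against wild-type, both under 2-fold.

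KRT80 is a type II keratin of many epithelia and lies beside KRT7 in the RefSeq gene order. Its single probe set, 231849_at, is not marked as shared and read 7.07 with mutant JMJD3, 8.97 with wild-type JMJD3 and 7.79 in control. The order of the arrays was that of KRT7. Against control, KRT80 was 1.65-fold lower in the mutant array, under 2-fold, and 2.27-fold higher in the wild-type array. Mutant against wild-type JMJD3 was 3.73-fold lower, as far out as 12 of 12829 measured genes (0.0935%). Under all 7 alternative settings KRT80 stayed past 2-fold for wild-type JMJD3 against control, at 1.04 to 1.20, and for mutant against wild-type, at -1.98 to -1.61. The settings that changed the floor or the choice of probe sets could not move these values. Its single probe set is unshared and lay over the highest floor tried (6.17) in every array.

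KRT8 and KRT18, partners in the filament of simple epithelium and neighbours in the RefSeq gene order, were each read by 1 probe set with shared probes. KRT8 (209008_x_at) read 10.67 with mutant JMJD3, 11.97 with wild-type JMJD3 and 11.76 in control. The mutant array was the low one, and the others lay close together. In the mutant array KRT8 was 2.13-fold lower than in control and 2.46-fold lower than in the wild-type array, while wild-type JMJD3 and control differed by 0.21.

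KRT18 (201596_x_at) read 12.83 with mutant JMJD3, 13.47 with wild-type JMJD3 and 13.40 in control. It was lowest in the mutant array as well, by 1.48-fold against control and 1.56-fold against wild-type JMJD3, neither of which reached 2-fold. RefSeq lists 52 pseudogenes named after KRT8 and 68 named after KRT18, and whether the shared probes read any of them was not tested. The pseudogene KRT8P12 had a probe set of its own, 222060_at, with 6.59 for mutant JMJD3, 6.85 for wild-type JMJD3 and 6.59 for control, so that mutant and control had the same value there. Its other probe set, 230116_at, read 6.29 with mutant JMJD3, 6.29 with wild-type JMJD3 and 6.39 in control, which puts the mutant 0.10 below control.

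KRT10, a type I keratin known from the upper layers of the epidermis, was bright in every array and varied least. Its 3 probe sets spanned 11.68 to 12.05 with mutant JMJD3, 11.70 to 11.99 with wild-type JMJD3 and 11.53 to 11.90 in control. These ranges overlapped, and no probe set moved by more than 0.22 over the arrays. Its usual epidermal partner KRT1 was under the floor, at 4.13 with mutant JMJD3, 4.19 with wild-type JMJD3 and 4.19 in control. KRT15, a type I keratin of basal layers and the RefSeq neighbour of KRT19, was under the floor at 4.75 in all 3 arrays and gave no difference.

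Over the 6 measured keratins, 2 differed by 2-fold or more between mutant JMJD3 and control, KRT19 upward and KRT8 downward. Among all 12707 measured genes 2.98% were higher and 0.535% lower by as much. The members were chosen with earlier results of these data known. In all 3 comparisons their counts beside the shares over all genes are thus a description only. KRT19 was at 0.30 with the median over probe sets, and the KRT8 value comes from shared probes. The keratin median was -0.54 (all measured genes, 0.00), with KRT7, KRT8, KRT18 and KRT80 below control and KRT10 and KRT19 above it.

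With wild-type JMJD3 against control, 3 of 6 measured keratins were higher by 2-fold or more (KRT7, KRT19 and KRT80) and 0 lower, against 0.953% of 12697 measured genes higher and 1.31% lower. KRT7 was at 0.21 at 1558393_at, which is not marked as shared, and KRT19 was at 0.47 with the median over probe sets. The keratin median was 0.68 (all measured genes, 0.05). All 6 measured keratins lay above control, KRT18 (0.07), KRT10 (0.12) and KRT8 (0.21) by little.

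For mutant against wild-type JMJD3, 3 of 6 measured keratins were lower by 2-fold or more (KRT7, KRT8 and KRT80) and 0 higher. Among 12829 measured genes 2.61% were lower and 6.20% higher. The 3 lower keratins were all the type II keratins measured, at -1.90 to -1.30. The type I keratins lay between -0.64 (KRT18) and 0.10 (KRT10). The KRT7 and KRT8 values come from shared probes, and KRT7 was at -0.52 at 1558393_at, which is not marked as shared. The keratin median was -0.97 (all measured genes, 0.00). This comparison shares its arrays with the other 2 and is no separate evidence.

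**Figure D2:**
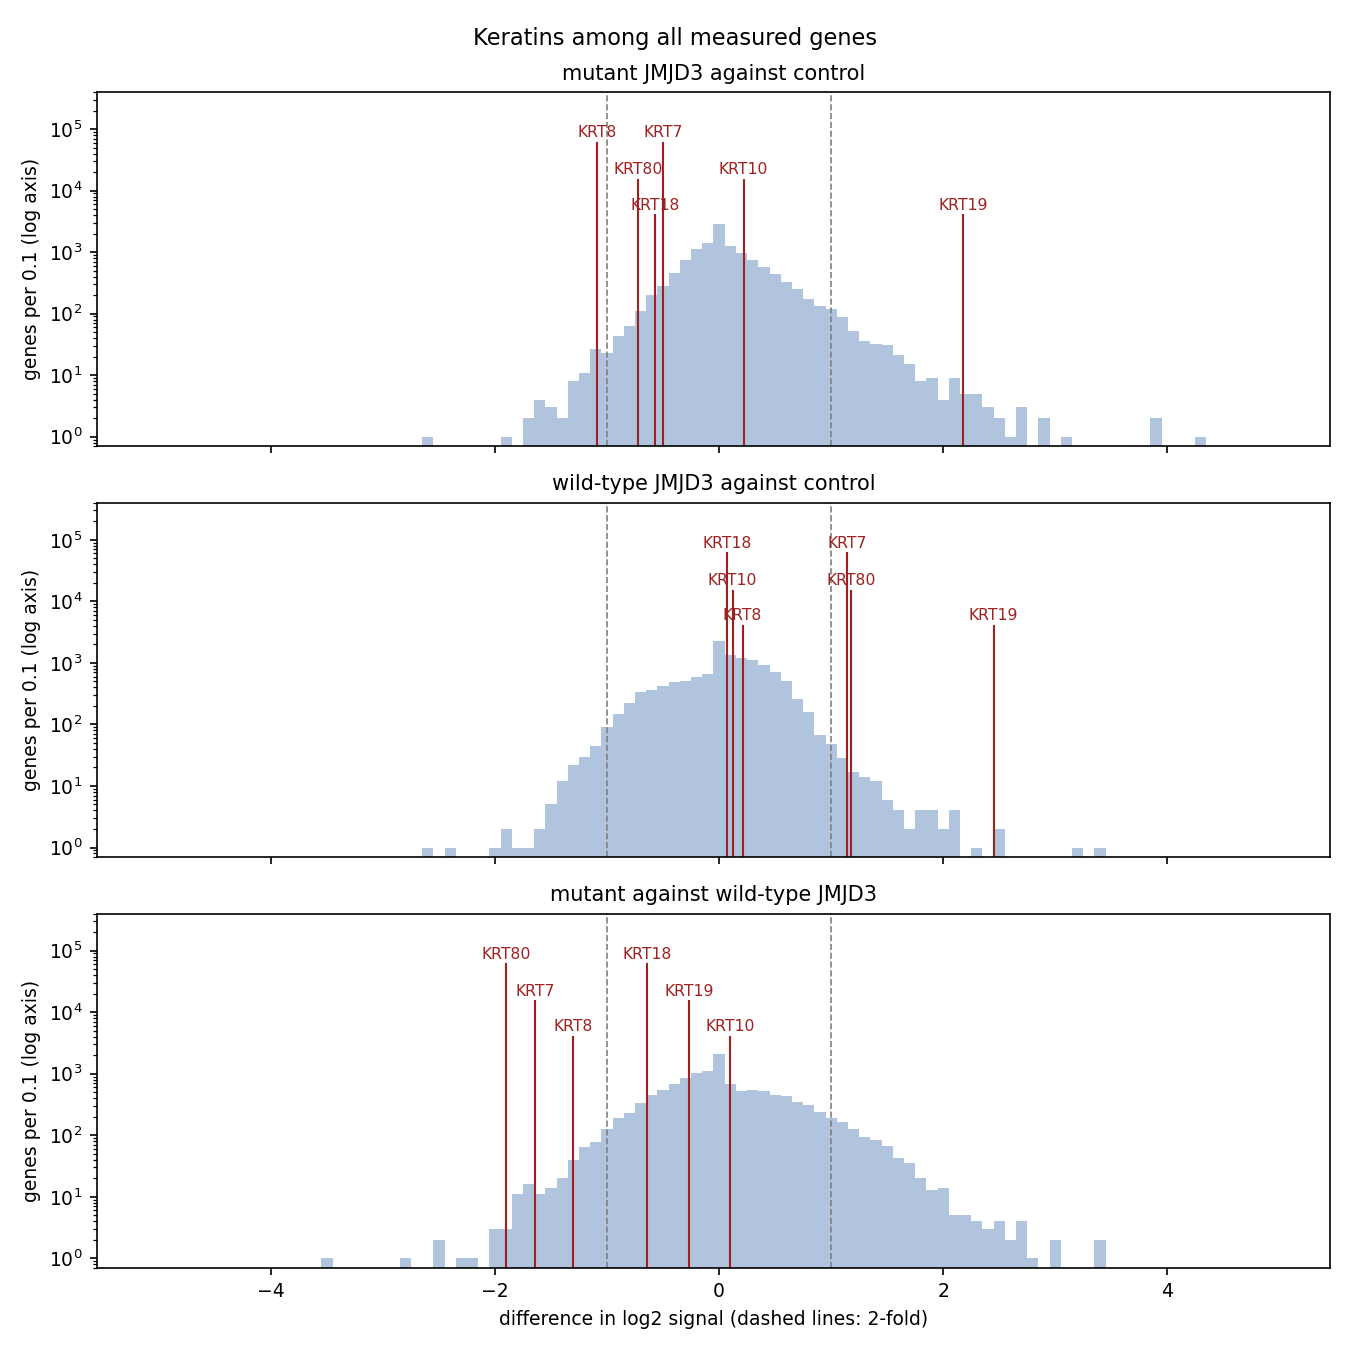
Number of measured genes (y axis, log scale) by difference in log2 signal (x axis) in the 3 comparisons, with the 6 measured keratins as red lines whose heights carry no value; dashed lines mark 2-fold. KRT19 stands far out on the higher side of both comparisons with control (2.18 for mutant and 2.45 for wild-type JMJD3), and KRT80, KRT7 and KRT8 on the lower side of mutant against wild-type JMJD3.

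How these values depend on the processing differed between the keratins. With mutant JMJD3 KRT8 was past 2-fold against control wherever its probe set was used, at -1.12 to -1.07, but has no value without shared probe sets. KRT19 with the median over probe sets, and KRT7 without shared probe sets, were under 2-fold as given above.

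**Figure D3:**
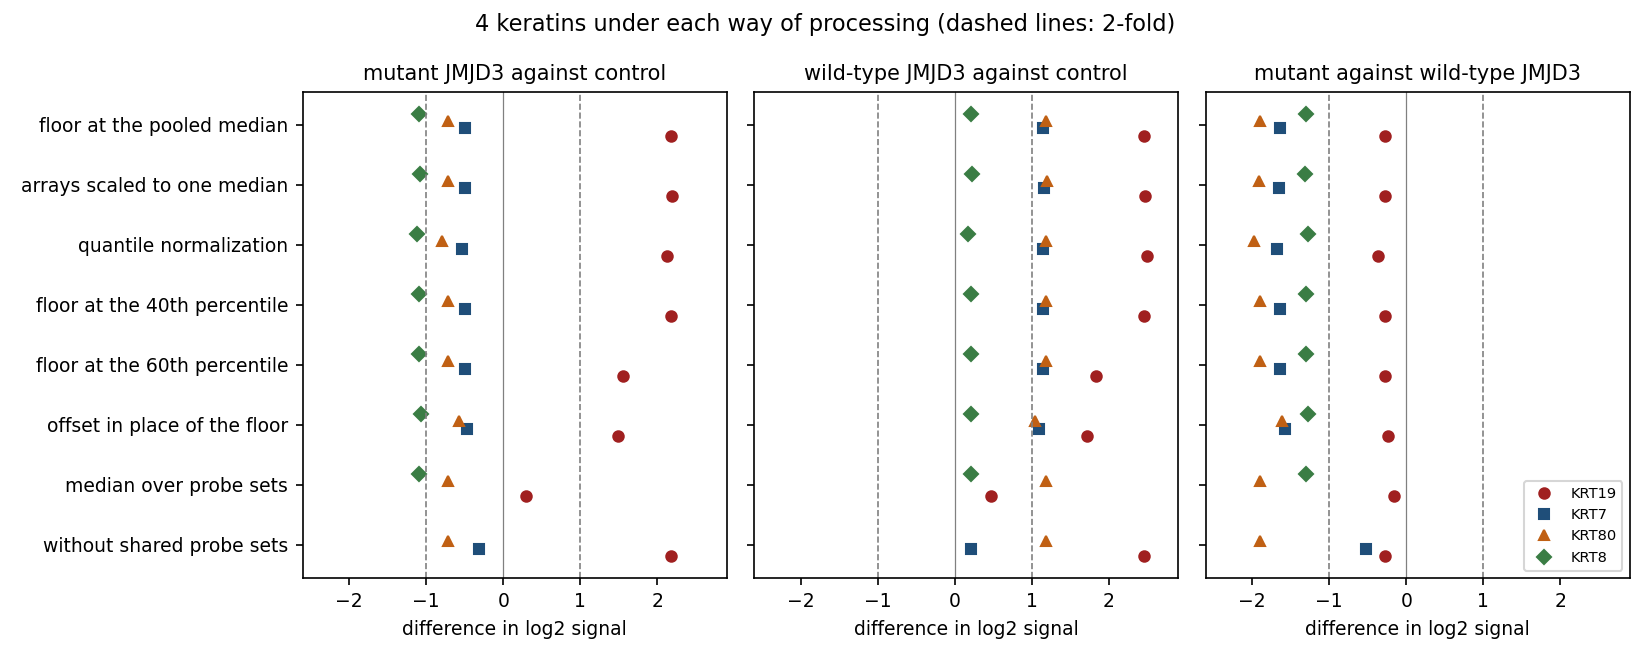
Difference in log2 signal (x axis) of KRT19, KRT7, KRT80 and KRT8 under each way of processing (rows) in the 3 comparisons; a missing point means that the gene had no measured value there, and dashed lines mark 2-fold. KRT80 stays beyond 2-fold in the second and the third panel in every row, but the floor and probe-set rows could not move it. KRT19 drops to 0.30 and 0.47 against control with the median over probe sets.

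The genes nearest in pattern were sought among 12155 other genes over the floor in all 3 arrays, by the distance of their differences from control (mutant and wild-type, log2, over 3 arrays). The distance is a description of 3 arrays and says nothing of shared control. Nearest to KRT19 were the small GTPase gene RAB31 (distance 0.32), the serine protease inhibitor gene SPINT2 (0.36) and MAGED1 (0.51). No gene lay within 0.25 of KRT19. RAB31 read 9.42 with mutant JMJD3, 9.34 with wild-type JMJD3 and 7.21 in control, high in both JMJD3 arrays like KRT19.

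Nearest to KRT80 were PLAC8 (0.11), the forkhead factor gene FOXQ1 (0.13) and the bile acid transporter subunit gene SLC51B (0.17), and nearest to KRT7 were SLC51B (0.08), C1orf53 (0.15) and PLAC8 (0.16). PLAC8 read 9.65 with mutant JMJD3, 11.39 with wild-type JMJD3 and 10.30 in control, and FOXQ1 read 9.57, 11.32 and 10.27 in the same arrays. KRT80 had 9 genes within 0.25 and KRT7 had 13. KRT8 had 30, with ALG10 (0.01), GPR107 (0.01) and INAVA (0.04) nearest, so its pattern was the most common of these.

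Few other keratins were measured. Of 15 named keratins of stratified and basal epithelium only KRT9 was over the floor, at 5.88 with mutant JMJD3, 5.88 with wild-type JMJD3 and 6.06 in control. The basal pair KRT5 and KRT14 was under it in every array, at 5.16 and 3.86. KRT20 and KRT23, further keratins of simple epithelium, were under the floor. Of 19 hair and root sheath keratins KRT72, KRT75 and KRT83 were over it, between 5.49 and 5.88. Like most measured genes, none differed by 2-fold in any comparison.

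Desmosome and linker genes tie keratin filaments to cell junctions and to each other. At the brightest probe sets 0 of 19 measured genes reached 2-fold against control with mutant JMJD3 (median -0.06, all genes 0.00). With wild-type JMJD3 0 of 19 did so (median 0.14, all genes 0.05). Few genes of the whole array did so either. With mutant JMJD3 2.98% were higher and 0.535% lower, and with wild-type JMJD3 0.953% and 1.31%. PERP, a desmosome-associated gene, differed by 0.31 between mutant JMJD3 and control at its brightest probe set, which has shared probes. With the median over probe sets, and likewise without shared probe sets, PERP was past 2-fold, at 1.24 for mutant JMJD3 against control and 1.34 for mutant against wild-type, and the count with mutant JMJD3 became 1. Without shared probe sets the wild-type median was 0.03. At the brightest probe sets, the other sizes nearest to 2-fold were -0.81 for PKP3 and 0.67 for DSC2 in mutant JMJD3 cells, and DSC3, at 6.23 with the mutant, was higher by at least 0.75. For mutant against wild-type JMJD3 1 of 20 was higher and 2 were lower, with a median of -0.08. Over all measured genes 6.20% were higher and 2.61% lower. The desmosomal plaque gene PKP3 was 2.07-fold lower, with 7.43 for mutant and 8.48 for wild-type JMJD3. FAM83H, whose protein binds keratin and organises its filaments, was 2.04-fold lower, with 9.50 for mutant and 10.53 for wild-type JMJD3. The desmosomal cadherin gene DSC2 was 2.31-fold higher, with 8.75 for mutant and 7.54 for wild-type JMJD3. PKP3 (-0.89) and FAM83H (-0.99) were under 2-fold when an offset replaced the floor, and PKP3 (-0.63) and FAM83H (-0.52) were so with the median over probe sets. DSC2 had no measured value with that median, and its dimmer 204751_x_at was at least 1.28-fold higher with mutant than with wild-type JMJD3, which lay under the floor.

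Desmoplakin (DSP), which anchors keratin to the desmosome, read 12.39 with mutant JMJD3, 11.70 with wild-type JMJD3 and 12.45 in control. It was lowest where KRT7 and KRT80 were highest, by -0.75 for wild-type JMJD3 against control, under 2-fold. Desmoglein 2 (DSG2) had the same low array, at 12.05 with mutant JMJD3, 11.29 with wild-type JMJD3 and 11.92 in control. Its dimmer 1553105_s_at read 8.25, 7.35 and 8.37 in the same arrays, past 2-fold for wild-type JMJD3 against control (-1.02). Epiplakin (EPPK1), a linker of keratin bundles, was instead highest with wild-type JMJD3, at 9.84 with mutant JMJD3, 10.53 with wild-type JMJD3 and 9.74 in control. Plectin (PLEC) read 8.15 with mutant JMJD3, 8.84 with wild-type JMJD3 and 8.70 in control. That is the array order that KRT7, KRT8, KRT18 and KRT80 shared.

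Of the other intermediate filament genes 10 of 13 were measured, and 0 differed by 2-fold in any comparison at the brightest probe set. Over all measured genes the largest shares were 6.20% higher and 2.61% lower, for mutant against wild-type JMJD3. Vimentin (VIM), the filament of mesenchymal cells, read 13.28 with mutant JMJD3, 13.34 with wild-type JMJD3 and 13.27 in control at its brightest probe set. It was bright and level in all 3 arrays there, while the dimmer 1555938_x_at read 7.04, 6.87 and 7.74. The lamin gene LMNA read 9.96 with mutant JMJD3, 10.89 with wild-type JMJD3 and 10.47 in control, and LMNB1 read 7.37, 8.08 and 8.07. Both were lowest with the mutant at these probe sets, at -0.93 and -0.71 against wild-type JMJD3. Without shared probe sets LMNA was instead lowest in control, with 9.06 for mutant JMJD3, 9.47 for wild-type JMJD3 and 8.94 for control. Its difference between mutant and control was 0.12 there and -0.51 at the brightest probe set, and that between mutant and wild-type JMJD3 was -0.41. At 1554600_s_at, a dimmer probe set with shared probes, LMNA was past 2-fold, with 9.23 for mutant and 10.27 for wild-type JMJD3 (-1.04). Synemin (SYNM) was instead lowest with wild-type JMJD3, at -0.69 against control.

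Among epithelial and ductal genes 10 of 18 named members were measured, and 2 were higher than control by 2-fold or more in each JMJD3 array, SPINT2 and SOX9. Over all measured genes 2.98% were higher than control with mutant JMJD3 and 0.953% with wild-type JMJD3. For mutant against wild-type JMJD3 1 of the 10 was higher (EPCAM) and 0 lower, against 6.20% and 2.61% of all measured genes. SOX9, a transcription factor of duct cells, read 8.40 with mutant JMJD3, 7.59 with wild-type JMJD3 and 5.81 in control. SPINT2 read 8.60 with mutant JMJD3, 9.03 with wild-type JMJD3 and 6.74 in control. As with KRT19, control was the low array for both. The list medians were 0.33 with mutant JMJD3 and 0.47 with wild-type JMJD3 against control (all genes, 0.00 and 0.05). The mutant median moved with the setting, to 0.19 and 0.18 with the floor at the 40th and 60th percentile, 0.74 with the median over probe sets and 0.15 without shared probe sets. SPINT2 and SOX9 were read only by probe sets with shared probes, without which 0 genes of the list passed 2-fold in any comparison. The adhesion gene EPCAM was 2.36-fold higher with mutant than with wild-type JMJD3, at 7.07 and 5.83, and by 0.90 on the log2 scale, under 2-fold, when the floor was raised to the 60th percentile. ST14, a membrane serine protease gene, was -0.99 for mutant against wild-type JMJD3 and passed 2-fold under quantile normalization (-1.09). E-cadherin (CDH1) was under the floor at 4.62 in all 3 arrays.

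Of the transcription factors known to act on keratin genes 18 were measured. JUN, a subunit of AP-1, was the only one to differ by 2-fold at the brightest probe set. It was higher with mutant JMJD3, as were 2.98% of all measured genes against control and 6.20% against wild-type JMJD3. With the median over probe sets SP3 also passed 2-fold, at -1.07 for wild-type JMJD3 against control, where its brightest probe set gave -0.43. JUN read 11.73 with mutant JMJD3, 9.93 with wild-type JMJD3 and 9.46 in control. In the mutant array JUN was 4.82-fold higher than in control and 3.48-fold higher than in the wild-type array. All 4 of its probe sets were highest with the mutant, by 1.75 to 3.19 against control. ELF3, an epithelial ETS factor, read 8.05 with mutant JMJD3, 8.31 with wild-type JMJD3 and 7.59 in control, and KLF5 read 8.57, 9.04 and 8.32. Both were highest with wild-type JMJD3 at these probe sets, by 0.72 against control. The other KLF5 probe set, 209212_s_at, was nearly level at 7.24, 7.34 and 7.31 in the same arrays. With the median over probe sets KLF5 differed by 0.38 between wild-type JMJD3 and control. For ELF3 the order of the JMJD3 arrays turned with the probe set: mutant minus wild-type JMJD3 was -0.26 at the brightest, and 0.26 with the median over probe sets and without shared probe sets. The list medians were 0.33 and 0.27 for mutant and wild-type JMJD3 against control (all genes, 0.00 and 0.05), and 0.22 for mutant against wild-type (all genes, 0.00). With the median over probe sets the medians of the mutant comparisons were 0.13 against control and 0.00 against wild-type JMJD3.

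**Figure D4:**
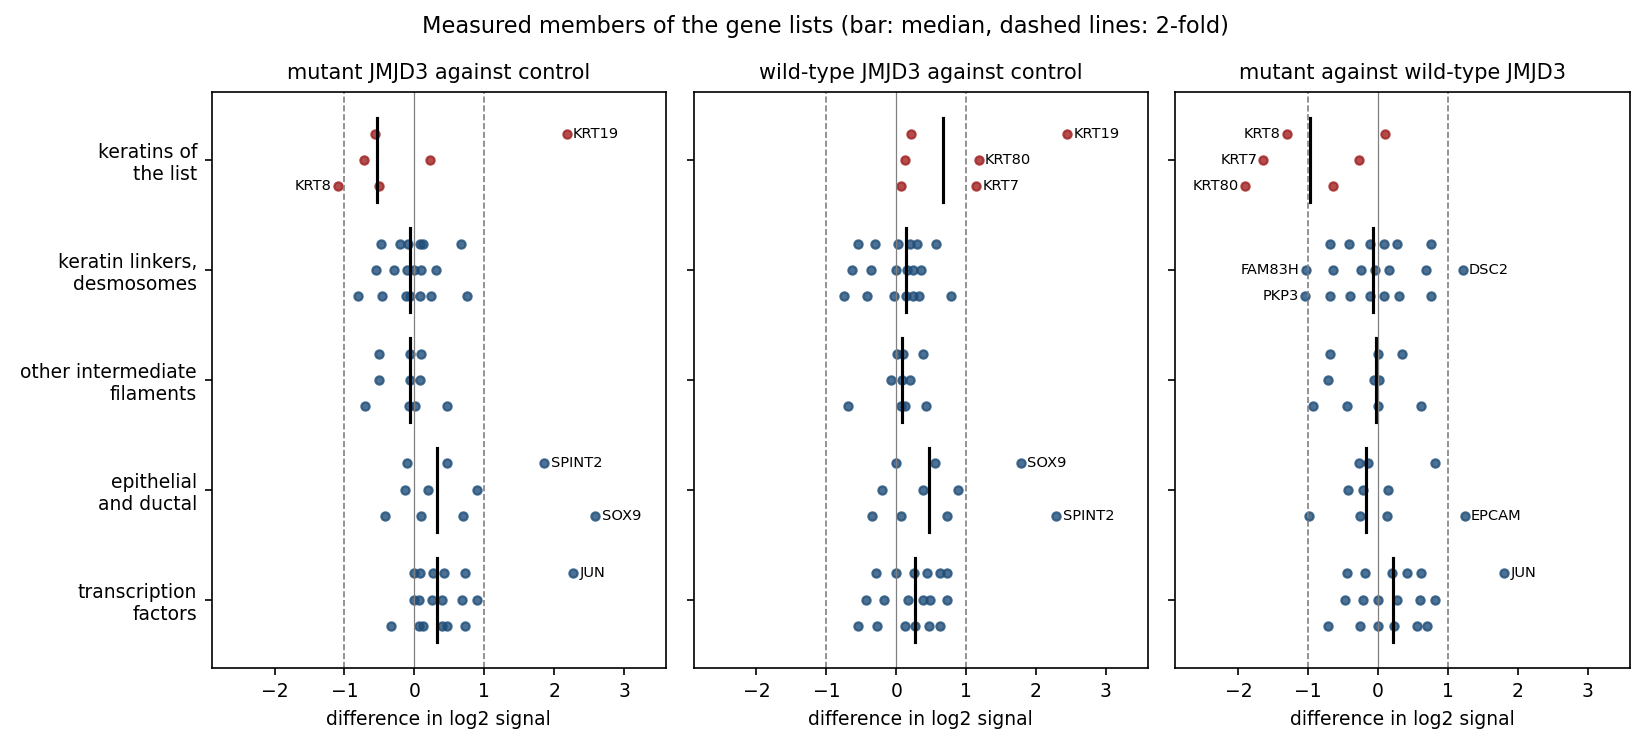
Difference in log2 signal (x axis) of each measured gene of the keratin list and of 4 other gene lists (rows) in the 3 comparisons; points are genes spread vertically for legibility, bars are list medians and names mark 2-fold or more. At their brightest probe sets the other intermediate filament genes stay within 2-fold in every panel. KRT19, SPINT2 and SOX9 lie furthest right among epithelial genes against control.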

How the data were processed

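The authors deposited 1 log2 signal per probe set and array. MAS5, an Affymetrix method of summarising probes, is named per the submitters' processing notes. For normalization between arrays, the method was not given in the sources used here. The sorted columns differed by at most 0.14. Gene symbols came from GEO's platform annotation (41091 with 1 gene symbol, 1801 with several and left unnamed, 11721 not listed), and 41037 of the 41091 gene identifiers matched RefSeq (GRCh38.p14), used only for names and gene order. No detection calls were used. Differences, folds, the floor and the 2-fold count are as given in the results, with no test. The 7 alternatives were quantile normalization, scaling to a common median, a floor at the 40th or the 60th percentile, an added offset, the median over probe sets, and leaving out probe sets ending in _s_at or _x_at. The members and lists were chosen with earlier results of these data known. The text names every keratin member, the 3 genes nearest in pattern to each member past 2-fold, and from each list, in each comparison, the genes past 2-fold or otherwise up to 3 with the largest difference. KRT1, KRT5, KRT14, KRT8P12, KRT20, KRT23, CDH1, CFTR, VIM, KDM6B, HBB, COL1A1, PLEC, PERP, SP3 and ST14 were named outside that rule, after their values were seen. The calculation was tested on simulated data. Calculations ran in Python 3.11.15 with pandas 2.3.3 and numpy 2.4.6, and figures in matplotlib 3.10.9.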

Additional observations from a re-analysis of the deposited data

How the results depend on the processing

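Over the 6 measured keratins no 2-fold call changed sign under any of the 7 alternatives. With the median over probe sets 0 keratins were higher with mutant JMJD3 than control and 1 (KRT80) with wild-type JMJD3, and KRT7 had no measured value. Without shared probe sets, which leaves KRT8, KRT10 and KRT18 without a value, 0 keratins were lower with mutant JMJD3 than control, and 1 was lower with mutant than wild-type JMJD3. Counts over all genes shrank when an offset replaced the floor, to 202 higher and 41 lower for mutant JMJD3 against control, 70 and 71 for wild-type JMJD3 against control, and 479 and 208 for mutant against wild-type. The median over probe sets gave 241, 71 and 501 genes higher in these comparisons, and leaving out shared probe sets gave 79 genes higher with wild-type JMJD3 than control. Scaling to one median, quantile normalization and the other floors kept each keratin on its side of 2-fold, but could hardly do otherwise. The sorted columns already differed by at most 0.14. At the brightest probe sets, all measured keratins but KRT19 lay over both other floors in every array. With 3 arrays, their number limits the precision. No paired analysis was possible because each line had 1 array.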
